A study of Rattus norvegicus with 14 samples.

Results

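The 9 genes described here are Or51b17, Or51b6, Or51k2, Or51k7, Or51q1d, Or51q1, Or51q1e, Or51k1 and Or51i1, olfactory receptor genes that lie in a row on rat chromosome 1. They were taken from a named list and found by gene number, and all 9 were measured, among 16134 genes that had 1 symbol on the arrays. The array table carried them under the older names Olr131, Olr132, Olr135, Olr136, Olr137, Olr139, Olr140, Olr141 and Olr142. The list was drawn up from measured values of these same arrays, in which the genes stood out in the group given testosterone and estradiol. Their differences involving that group are therefore a description and support nothing by themselves. The arrays also measured 35 other Or51 genes and 1103 olfactory receptor genes outside the Or51 family, which served as contrast.

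RNA came from the lateral prostate, a lobe of the rat prostate, of 14 male Noble rats aged 48 weeks, with 1 array per rat. Noble rats are a strain used to study hormone-driven prostate disease, and the study asked what bisphenol A (BPA), a building block of plastics with estrogenic activity, does to this lobe. The T+E2 group (4 rats) carried 30 mg of testosterone and 15 mg of estradiol. The T+lowBPA group (3 rats) carried 30 mg of testosterone and 15 mg of BPA, and the T+highBPA group (3 rats) 30 mg of testosterone and 320 mg of BPA. The control group (4 rats) carried empty capsules, and capsules stayed in place for 32 weeks. All treated groups thus received testosterone and the controls did not, and a group given testosterone alone was not analysed here.

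Olfactory receptors are G protein-coupled receptors best known from the sensory neurons of the nose, where each neuron uses mainly 1 receptor gene. The Or51, Or52 and Or56 families belong to class I, the receptors related to those of fish, and their genes lie around the beta-globin genes. The coding region of an olfactory receptor is usually a single exon. In humans the Or51 members OR51E1 and OR51E2 are known for their high levels in prostate, and the mouse receptor Olfr78 (Or51e2) responds to short-chain fatty acids. No ligand is given here for any of the 9 genes.

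In the gene order of the GRCr8 RefSeq table, 16 genes ran from Or51b17 to Or51i1, of which 11 were protein coding and 5 were pseudogenes. The 9 measured ones were exactly the 9 genes of the run. Those not measured were the pseudogenes Or51m1-ps1, Olr134-ps, Tmed5-ps1, Or51k1b-ps1 and Snx12-ps1, and the coding genes LOC134484818 and LOC120099899. The embryonic-type globin genes Hbg1, Hbe2 and Hbe1 and the receptors Or51b4b and Or51b4 were the nearest 5 measured genes before the run. Or51i2, Or51a10, Or51a42, Or52d1 and the ubiquilin gene Ubqln5 were the nearest 5 after it. The 9 gene models were 924 to 966 bases long, each a multiple of 3, so they are coding lengths without untranslated regions.

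RefSeq start windows, 250 bases before to 50 bases after the model's start in GRCr8, were at hand for 8 of the 9 genes, all but Or51k7. Of these 8, Or51b6, Or51k2, Or51q1d, Or51q1 and Or51q1e (5) were on the plus strand and Or51b17, Or51k1 and Or51i1 (3) on the minus strand, so the run is not a single block of one orientation. In 8 of 8 windows the 250 bases were followed by ATG, so those 250 bases lie upstream of the coding start and need not hold the start of transcription. The other 50 bases, from the ATG on, are coding. The sequences below are shown for the 5 genes at the end of the run next to Or51i2, 4 of which had its 4 largest differences, and for Or51i2 itself, the first measured gene beyond it. They are Or51q1d (chr1:167838098-167838397, plus), Or51q1 (chr1:167867770-167868069, plus), Or51q1e (chr1:167893789-167894088, plus), Or51k1 (chr1:167899636-167899935, minus), Or51i1 (chr1:167915362-167915661, minus) and Or51i2 (chr1:167925309-167925608, plus), each written 5′ to 3′ on the gene's strand. Capitals mark the start codon and matches to the motifs named after the sequences.
Or51q1d: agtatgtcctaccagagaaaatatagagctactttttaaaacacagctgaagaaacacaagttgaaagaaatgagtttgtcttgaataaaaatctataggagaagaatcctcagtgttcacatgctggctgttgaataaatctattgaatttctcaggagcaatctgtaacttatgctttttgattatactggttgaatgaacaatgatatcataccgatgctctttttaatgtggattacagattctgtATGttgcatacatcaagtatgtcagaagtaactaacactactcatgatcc
Or51q1: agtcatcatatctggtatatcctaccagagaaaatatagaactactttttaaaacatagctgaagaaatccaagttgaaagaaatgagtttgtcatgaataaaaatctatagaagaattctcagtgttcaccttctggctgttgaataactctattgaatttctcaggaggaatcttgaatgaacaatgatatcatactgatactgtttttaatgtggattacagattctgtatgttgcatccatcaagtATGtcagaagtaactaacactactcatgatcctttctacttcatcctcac
Or51q1e: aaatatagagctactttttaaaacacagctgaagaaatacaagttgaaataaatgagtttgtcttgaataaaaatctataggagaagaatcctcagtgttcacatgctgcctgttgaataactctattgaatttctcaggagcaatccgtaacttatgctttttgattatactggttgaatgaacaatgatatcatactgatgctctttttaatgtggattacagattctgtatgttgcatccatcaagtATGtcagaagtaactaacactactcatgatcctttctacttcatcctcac
Or51k1: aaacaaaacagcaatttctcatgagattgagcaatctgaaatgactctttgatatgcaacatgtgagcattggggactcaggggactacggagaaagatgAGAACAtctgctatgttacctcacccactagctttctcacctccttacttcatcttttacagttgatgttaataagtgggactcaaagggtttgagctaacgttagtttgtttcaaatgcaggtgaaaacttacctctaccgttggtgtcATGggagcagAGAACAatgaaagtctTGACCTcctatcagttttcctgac
Or51i1: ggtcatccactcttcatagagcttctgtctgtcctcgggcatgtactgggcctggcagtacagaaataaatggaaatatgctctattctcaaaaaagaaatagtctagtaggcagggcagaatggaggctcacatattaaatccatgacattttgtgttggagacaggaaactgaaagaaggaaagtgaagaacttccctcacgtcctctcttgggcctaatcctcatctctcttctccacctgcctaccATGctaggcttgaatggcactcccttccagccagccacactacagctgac
Or51i2: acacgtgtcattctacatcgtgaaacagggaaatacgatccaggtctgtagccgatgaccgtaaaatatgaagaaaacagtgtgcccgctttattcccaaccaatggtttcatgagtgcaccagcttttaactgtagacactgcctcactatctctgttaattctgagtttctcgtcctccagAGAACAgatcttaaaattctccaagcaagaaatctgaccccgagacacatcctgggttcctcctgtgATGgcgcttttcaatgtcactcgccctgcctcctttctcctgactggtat

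The windows of the Or51q1 copies were close to one another. Or51q1d and Or51q1e were 97.5% identical in alignment, Or51q1 and Or51q1e 85.7%, and Or51q1d and Or51q1 84.3%. The remaining 25 pairs among the 8 windows had 51.9% to 57.8%. The position of the array probes is not known here, so how far the probes of Or51q1d, Or51q1 and Or51q1e read each other's RNA is uncertain, and their 3 values may not be independent.

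Hormone response motifs were searched on both strands of the windows. The full estrogen response element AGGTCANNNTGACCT was in 0 of the 8 windows of the run, 0 of 32 windows of other Or51 genes and 0.00896% of 33469 windows of all genes. The full androgen response element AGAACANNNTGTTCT was likewise in 0 of 8 and 0 of 32, against 0.0149% of all windows. The single arm AGGTCA, which overlaps the full estrogen element, was found in Or51k1, 1 of 8 windows, against 5 of 32 for other Or51 genes and 16.2% overall. The arm AGAACA, which overlaps the full androgen element, was found in Or51b6 and Or51k1, 2 of 8, against 8 of 32 and 20.7%. In the Or51k1 sequence above, AGAACA stands in capitals at 2 places and TGACCT, the reverse complement of AGGTCA, at 1, while the Or51i2 sequence holds AGAACA once. In Or51k1 the TGACCT and 1 of the 2 AGAACA lie after the ATG, in coding bases, and not upstream. A TATAAA box was found in Or51k2, 1 of 8, against 12 of 32 and 14.2%. The homeodomain motif TAATTA was in 0 of 8, 2 of 32 and 5.36%, and the EBF motif CCCNNGGG in 0 of 8, 1 of 32 and 12.4%. A match is a stretch of letters, and the lack of one concerns these windows alone.

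In the lateral prostate, all 9 receptors of the run were higher in T+E2 rats than in control rats, with no array of one group reaching into the other, and in both BPA groups the means were within 0.31 of control. The differences of T+E2 minus control ran from 0.77 to 2.40 on the log2 scale, 1.70-fold to 5.29-fold, with a median of 1.47. All values are the deposited log2 values, and in this bulk tissue a larger number of cells of one type and more RNA per cell cannot be told apart. Levels of different genes are not compared, since each probe set has its own response.

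Or51b17, the first gene of the run, had 5.66, 5.37, 5.45 and 5.45 in T+E2 rats. It had 4.67, 4.57 and 4.64 in T+lowBPA rats and 4.63, 4.49 and 4.47 in T+highBPA rats, against 4.89, 4.46, 4.66 and 4.86 in control rats. All 4 T+E2 arrays lay above the other 10 arrays, while the BPA and control arrays overlapped. The means were 5.48 ± 0.12 in T+E2 and 4.72 ± 0.20 in control (SD, n = 4 each), a difference of 0.77 or 1.70-fold, the smallest of the run.

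Or51b6, its neighbour on the opposite strand, had 4.75, 4.90, 4.90 and 4.76 in T+E2 rats. The BPA groups had 3.60, 4.13 and 3.93 (T+lowBPA) and 3.75, 3.80 and 3.64 (T+highBPA), against 4.11, 4.05, 3.86 and 3.99 in control rats. The T+E2 arrays were again the highest 4, and the 3 T+highBPA arrays lay below all 4 control arrays. T+E2 averaged 4.83 ± 0.08 and control 4.0 ± 0.11 (SD, n = 4 each), which is 0.82 higher or 1.77-fold.

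Or51k2 had 6.44, 6.28, 6.56 and 6.70 in T+E2 rats. It had 5.46, 5.45 and 5.34 in T+lowBPA rats and 5.21, 5.15 and 5.02 in T+highBPA rats, against 5.48, 5.41, 5.36 and 5.47 in control rats. The T+lowBPA arrays overlapped control, and the T+highBPA arrays lay below it. The T+E2 mean of 6.49 ± 0.18 stood 1.07 above the control mean of 5.43 ± 0.05 (SD, n = 4 each), 2.09-fold.

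Or51k7 had 6.07, 6.43, 6.66 and 6.34 in T+E2 rats. The values were 4.93, 5.65 and 5.12 in T+lowBPA rats and 4.92, 4.59 and 4.85 in T+highBPA rats, against 5.02, 4.96, 5.03 and 5.35 in control rats. T+lowBPA replicate 2, at 5.65, was the highest array outside T+E2 and still lay below every T+E2 array. The means were 6.37 ± 0.25 in T+E2 and 5.09 ± 0.17 in control (SD, n = 4 each), a difference of 1.28 or 2.43-fold.

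The 3 Or51q1 copies follow in the middle of the run. Or51q1d had 5.86, 6.90, 7.02 and 6.34 in T+E2 rats. It had 4.38, 4.35 and 4.39 in T+lowBPA rats and 4.38, 4.25 and 4.21 in T+highBPA rats, against 4.23, 4.10, 4.23 and 4.50 in control rats. The 10 arrays outside T+E2 spanned 4.10 to 4.50, and the T+E2 arrays spread more widely. Its means of 6.53 ± 0.54 in T+E2 and 4.27 ± 0.17 in control (SD, n = 4 each) differed by 2.27, or 4.81-fold.

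Or51q1 had 7.30, 7.90, 8.32 and 7.86 in T+E2 rats. It had 5.45, 5.41 and 5.48 in T+lowBPA rats and 5.21, 5.29 and 5.43 in T+highBPA rats, against 5.58, 5.37, 5.24 and 5.58 in control rats. The lowest T+E2 array lay above every other array, and the BPA arrays lay among or next to the control arrays. The means of 7.84 ± 0.42 in T+E2 and 5.44 ± 0.17 in control (SD, n = 4 each) gave 2.40, or 5.29-fold, with a 95% interval of 2.06 to 2.75, the largest difference of the run.

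Or51q1e had 6.71, 7.58, 7.52 and 7.09 in T+E2 rats. It had 5.58, 5.81 and 5.76 in T+lowBPA rats and 5.55, 5.74 and 5.53 in T+highBPA rats, against 6.04, 5.70, 5.69 and 5.59 in control rats. Groups other than T+E2 overlapped. Its difference of 1.47, or 2.77-fold, from means of 7.22 ± 0.41 in T+E2 and 5.76 ± 0.20 in control (SD, n = 4 each), was the smallest among the 5 genes from Or51q1d to Or51i1.

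Or51k1 had 6.86, 7.25, 7.25 and 7.0 in T+E2 rats. It had 4.90, 5.05 and 4.79 in T+lowBPA rats and 4.70, 4.84 and 4.77 in T+highBPA rats, against 4.80, 4.74, 4.66 and 5.10 in control rats. The BPA arrays all fell within the range of the control arrays. The means were 7.09 ± 0.19 in T+E2 and 4.83 ± 0.19 in control (SD, n = 4 each), 2.26 apart, or 4.80-fold.

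Or51i1, the last gene of the run, had 6.48, 7.17, 7.06 and 6.65 in T+E2 rats. It had 4.66, 4.94 and 4.67 in T+lowBPA rats and 4.61, 4.25 and 4.56 in T+highBPA rats, against 4.65, 4.51, 4.77 and 4.56 in control rats. Once more the 4 T+E2 arrays stood above all others. Both BPA groups overlapped control, while the T+highBPA arrays all lay below the T+lowBPA arrays. The means were 6.84 ± 0.33 in T+E2 and 4.62 ± 0.12 in control (SD, n = 4 each), a difference of 2.22 or 4.65-fold.

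**Figure D1:**
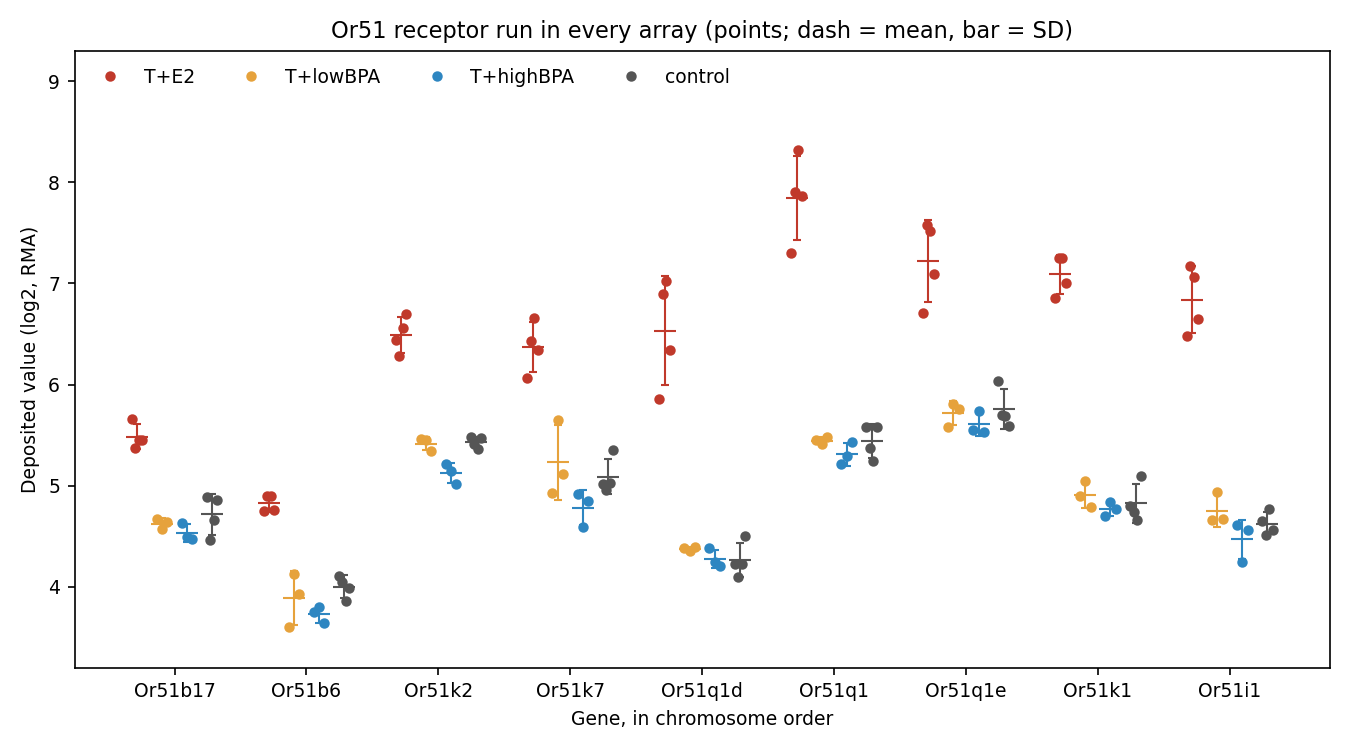
Deposited log2 value (vertical axis) of each of the 9 genes in chromosome order (horizontal axis), with a point per array, a dash for the group mean and a bar for the SD. For each gene the 4 T+E2 points lie above the 10 other points, by the widest margin for Or51k1, where T+E2 began at 6.86 and control ended at 5.10.

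With limma fitted over all 16134 genes, 9 of 9 genes of the run were called higher in T+E2 than in control at an adjusted p below 0.05, where 1.76% of all genes were called higher. Their arrays did not overlap in 9 of 9, where 4.66% of all genes had T+E2 arrays all above control. The genes were chosen from values of these same arrays, and differences involving T+E2 are treated as used by that choice. Nothing is therefore read from those counts.

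Along the chromosome, the difference of T+E2 minus control was 0.77, 0.82, 1.07 and 1.28 for Or51b17, Or51b6, Or51k2 and Or51k7. It was 2.27, 2.40, 1.47, 2.26 and 2.22 for Or51q1d, Or51q1, Or51q1e, Or51k1 and Or51i1. Probe sets differ in their response, so these sizes are given in gene order and were not tested against one another. Beyond the end of the run the difference dropped to the level of other receptors within 1 measured gene. The list was drawn up from values in which its genes stood out in T+E2, so its ends may be set by that choice. Nothing is read from the drop. Or51i2 had 4.74, 4.73, 4.87 and 4.93 in T+E2 rats, against 4.70, 4.55, 4.52 and 5.20 in control rats, and these arrays overlapped. Its difference was 0.08 with a 95% interval of -0.27 to 0.42 (limma adjusted p = 0.85).

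The other end of the run, which may likewise be set by the choice of genes, was less sharp. Or51b4, next to Or51b17, averaged 3.54 ± 0.14 in T+E2 and 3.35 ± 0.07 in control (SD, n = 4 each), a difference of 0.19 (limma adjusted p = 0.258). Or51b4b, a gene further out, had 3.78, 4.21, 3.94 and 4.11 in T+E2 rats, against 3.56, 3.16, 3.50 and 3.12 in control rats, with no overlap. It was 0.68 ± 0.14 (SE) or 1.60-fold higher in T+E2 (limma adjusted p = 0.0144), close in size to Or51b17 just inside the run. Its limma adjusted p became 0.052 when control replicate 2 was left out and 0.0516 when T+E2 replicate 4 was, which ended the call, and ran from 0.0106 to 0.052 over 20 alternatives. The globin genes Hbg1, Hbe2 and Hbe1 had differences of 0.30, 0.17 and 0.37 (limma adjusted p = 0.0643, 0.372 and 0.134). The 5 genes before the run thus had a median of 0.30 and the 5 after it 0.08. Of these, 1 and 0 were called higher, where 1.76% of all genes were. T+E2 arrays lay all above control for 3 (Or51b4b, Hbg1 and Hbe1) and 0 of them, where 4.66% of all genes did so.

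**Figure D2:**
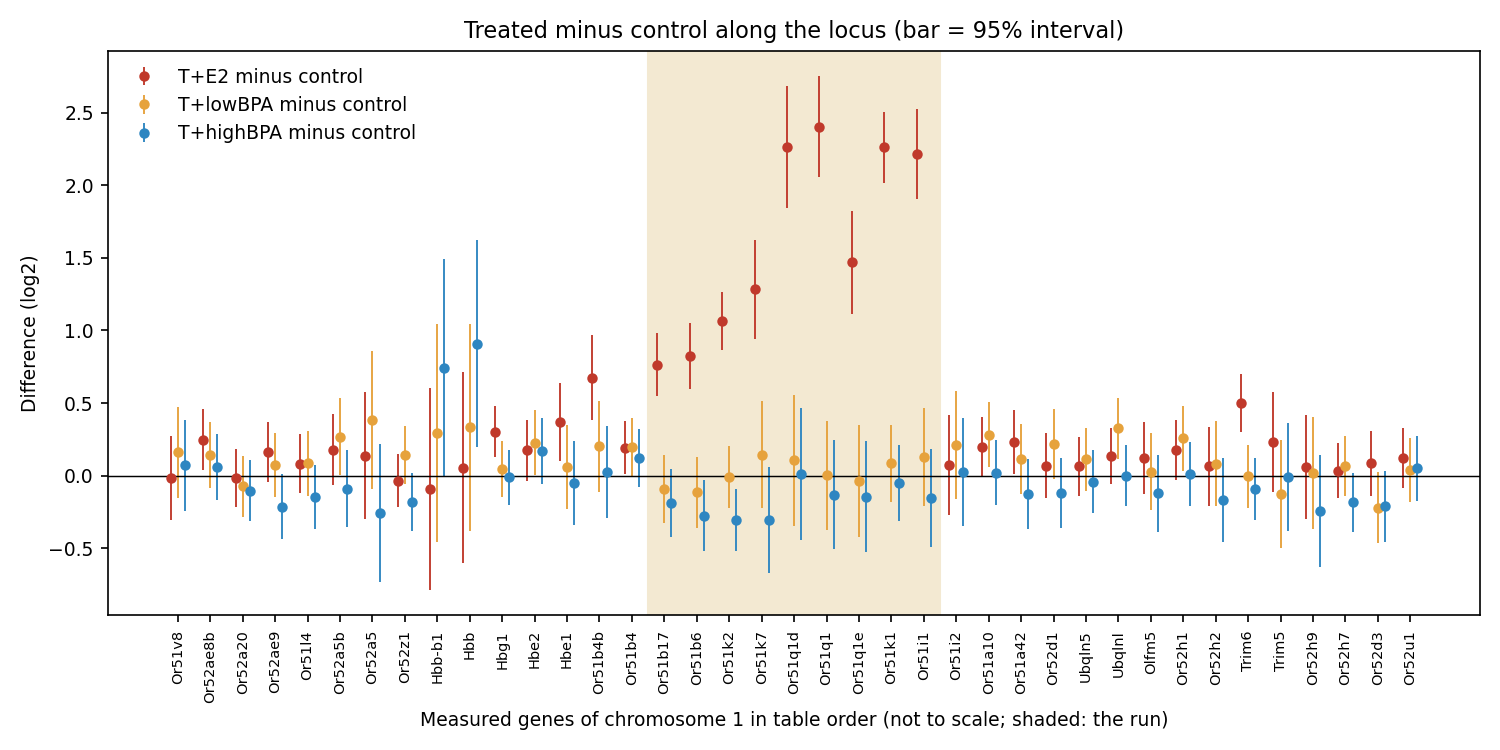
Difference from control (log2, vertical axis) of T+E2, T+lowBPA and T+highBPA for measured genes of chromosome 1 in table order (horizontal axis, not to scale), with 95% intervals as bars and the run shaded. T+E2 differences reach 2.40 inside the run and drop to 0.08 at Or51i2, while the differences of both BPA groups across the run lie between -0.31 and 0.14.

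Within the run, the T+E2 rats did not all reach the same level. The mean of the 9 genes, each centred on its own mean over 14 arrays, was 0.90, 1.31, 1.41 and 1.13 in T+E2 replicates 1 to 4. It was -0.49, -0.30 and -0.43 in T+lowBPA rats, -0.56, -0.62 and -0.62 in T+highBPA rats and -0.36, -0.53, -0.50 and -0.34 in control rats. T+E2 replicate 1 was the lowest of the 4 T+E2 arrays for 7 of 9 genes, and T+E2 replicate 2 for the other 2, Or51b17 and Or51k2. For Or51b17, replicate 1 was the highest. Without T+E2 replicate 1 the run's median difference was 1.64.

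Pairs of genes of the run had Pearson correlations of 0.884 to 0.99 over the 14 arrays (36 pairs, median 0.947), which the T+E2 group dominates. After each group's mean was removed, the correlations ran from -0.305 to 0.825 with a median of 0.365. In the 10 arrays outside T+E2 they ran from -0.338 to 0.748 with a median of 0.181. These are descriptions over arrays that share their normalization.

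Against control, neither BPA group showed a called difference for any gene of the run. For T+lowBPA minus control, differences ran from -0.11 for Or51b6 to 0.14 for Or51k7, and the 9 intervals together spanned -0.42 to 0.56. By limma 0 of 9 were called, where 0.0186% of all genes were, and 0 of 9 had an unadjusted p below 0.05, against 1225 of all genes. So few genes were called in that comparison that a count of 0 says little, and the widest interval still allows a difference of 0.56. In control rats the means of the run's genes were 4.0 to 5.76, below the array medians of 6.38 to 6.46. Small decreases from such levels may be missed.

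For T+highBPA minus control, differences ran from -0.31 to 0.01 with a median of -0.15, and intervals spanned -0.67 to 0.46. By limma 0 of 9 were called, where 0.0062% of all genes were, and 2 of 9, Or51b6 and Or51k2, had an unadjusted p below 0.05, as did 1394 of all genes. All T+highBPA arrays lay below all control arrays for 3 of 9 genes, Or51b6, Or51k2 and Or51k7, where 5.13% of all genes did. Among other Or51 genes 1 of 35 did, and outside Or51 106 of 1103 receptors. The 3 genes of the run sit next to one another near its start, and none passed the adjusted threshold. The run had 8 of 9 genes below 0, and other receptors leaned the same way, with a median of -0.07 and 25 of 35 negative among the other Or51 genes and -0.10 and 914 of 1103 negative outside Or51, against -0.02 for all genes. After cyclic loess normalization the medians were -0.10 for the run, 0.01 for other Or51 genes and -0.01 outside Or51, with 7 of 9 negative in the run. With array medians centred they were -0.13, -0.05 and -0.08, with 8 of 9 negative in the run.

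T+highBPA minus T+lowBPA was below 0 for 9 of 9 genes, between -0.45 (Or51k7) and -0.09 (Or51q1d), with a median of -0.14. By limma 0 of 9 were called, as were 0% of all genes, while 2 of 9 and 2252 of all genes had an unadjusted p below 0.05. The arrays did not overlap, T+highBPA lower, for 3 of 9, Or51k2, Or51k7 and Or51i1, where 15.7% of all genes did so. The same held for 14 of 35 other Or51 genes and 390 of 1103 receptors outside Or51, so the run did not stand out from them. Here too other receptors lay lower, with a median of -0.22 and 33 of 35 negative among the other Or51 genes, and -0.17 and 1009 of 1103 negative outside Or51, against a median of -0.05 for all genes. After cyclic loess normalization of the arrays the medians were -0.04 for the run, -0.08 for other Or51 genes and -0.03 outside Or51, with 7 of 9 negative in the run. With array medians centred they were -0.11, -0.19 and -0.15, with 9 of 9 negative in the run.

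Set against T+E2 directly, both BPA groups were lower for 9 of 9 genes of the run. T+lowBPA minus T+E2 ran from -2.40 to -0.86 with a median of -1.51, and 9 of 9 were called lower by limma, where 1.75% of all genes were. The arrays did not overlap in 9 of 9, where 6.82% of all genes had T+lowBPA arrays all below T+E2. T+highBPA minus T+E2 ran from -2.53 to -0.95 with a median of -1.62, and 9 of 9 were called lower, where 3.68% were, with no overlap in 9 of 9, where 14.1% had none. All these groups received the same 30 mg of testosterone. Both comparisons use the T+E2 arrays that also enter T+E2 minus control, so they repeat the same 4 high arrays and add no separate evidence.

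The other Or51 genes had a median difference of 0.09 for T+E2 minus control (range -0.18 to 0.68), with 1 of 35, Or51b4b, called higher and 0 lower by limma, and 8 with an unadjusted p below 0.05. Olfactory receptors outside Or51 also had a median of 0.09, with 6 of 1103 called higher and 1 lower, and all genes 0.01. Of all 16134 genes, 1.76% were called higher and 2882 had an unadjusted p below 0.05. After cyclic loess normalization the medians were 1.45 for the run and 0.02 for both other receptor sets. With array medians centred they were 1.47 for the run and 0.09 for both. The small upward lean of other receptors thus shrank under cyclic loess and stayed under median centring. Or51e1, whose human counterpart is known from prostate, averaged 6.44 ± 0.36 in T+E2 (SD, n = 4), 6.44 ± 0.02 in T+lowBPA and 5.86 ± 0.37 in T+highBPA (n = 3 each), and 5.92 ± 0.21 in control (n = 4). T+E2 minus control was 0.52 for this gene (limma adjusted p = 0.143). Or51e2 averaged 5.55 ± 0.16 in T+E2 and 5.50 ± 0.11 in control (SD, n = 4 each), 0.05 apart (limma adjusted p = 0.872). Among other Or51 genes, the largest differences besides those of Or51b4b were between the BPA groups. T+highBPA minus T+lowBPA was -0.73 for Or51a25 and -0.63 for Or51f1f (limma adjusted p = 0.338 and 0.241), neither of which passed.

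**Figure D3:**
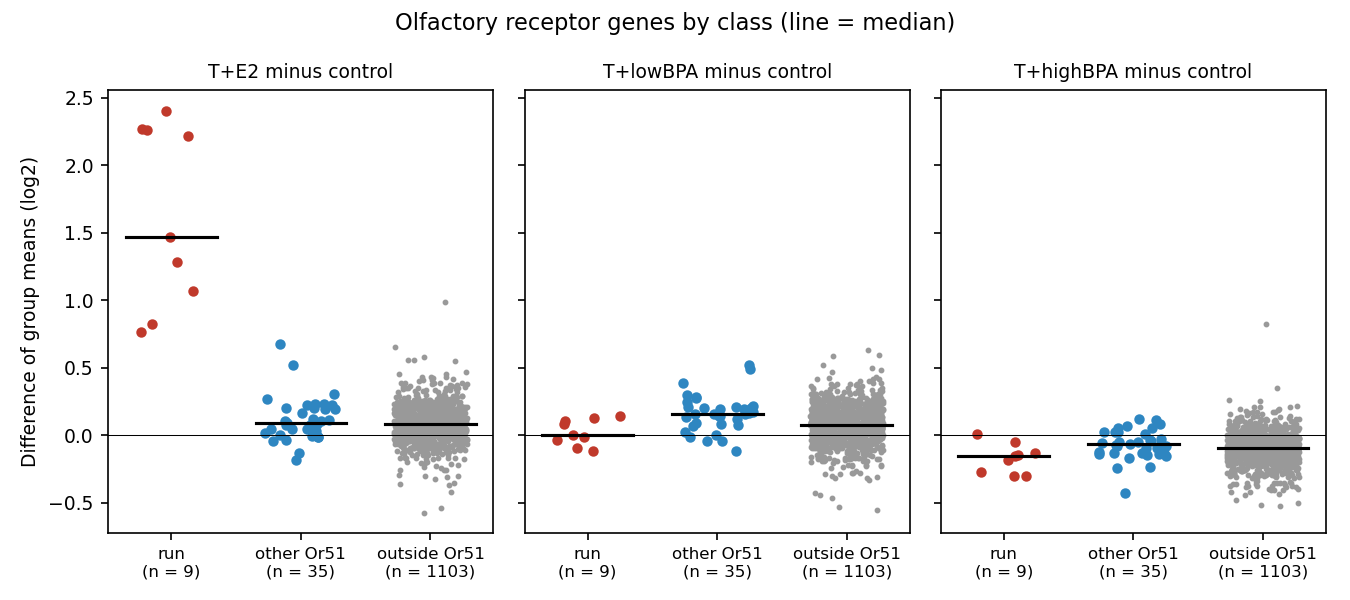
Difference of group means (log2, vertical axis) for genes of the run (n = 9), other Or51 genes (n = 35) and olfactory receptors outside Or51 (n = 1103), with 1 panel per comparison with control and a line at each median. The medians in T+E2 minus control are 1.47, 0.09 and 0.09, and the run overlaps the other sets in both BPA panels.

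Genes that work with olfactory receptors in the nose were looked at in T+E2 against control. Of all 16134 genes, 284 were called higher and 237 lower there. Counts of 0 or 1 in short lists therefore say little. Of the olfactory signalling list (G protein, cyclase, channels and receptor transporters), 19 of 22 were measured, and 1 was called higher and 0 lower in T+E2 by limma, with a median of 0.03. The 1 was Slc12a2, a sodium, potassium and chloride cotransporter also known from secretory epithelia, at 12.4 ± 0.08 in T+E2 and 11.6 ± 0.20 in control (SD, n = 4 each), 0.81 higher (adjusted p = 0.00231). Of 10 factors known from receptor gene choice in mouse (Lhx2, Ldb1, Ebf1 and others), 10 were measured and 0 were called by limma, with a median of -0.02. Ebf3 had the largest of these differences, 0.46 (adjusted p = 0.14).

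Of the olfactory sensory neuron markers, 11 of 12 were measured, with a median of 0.10, 1 called higher and 1 lower. The list averaged 5.94 to 6.23 per array in T+E2 and 5.99 to 6.08 in control, and these ranges overlapped. Omp, the marker that defines mature olfactory neurons, averaged 6.18 ± 0.11 in T+E2 and 5.95 ± 0.14 in control (SD, n = 4 each; limma adjusted p = 0.189). Stoml3 was 0.52 higher (limma adjusted p = 0.048), a call that ended in 16 of 20 alternatives with adjusted p-values of 0.0292 to 0.147. Ncam1, an adhesion molecule of many neurons, was 0.65 ± 0.14 (SE) lower in T+E2, at 8.42 ± 0.15 against 9.07 ± 0.22 in control (SD, n = 4 each; limma adjusted p = 0.0223). That call ended in 4 of 21 alternatives, with a range of 0.00805 to 0.0739. Of the globin and locus list, 13 of 27 were measured, with a median of 0.17 and 1 called, the tripartite motif gene Trim6, 0.50 higher (limma adjusted p = 0.00832). Erythroid markers (7 of 12 measured) had 0 called and a median of -0.01.

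The labelled tissue was checked against its markers. Prostate epithelial markers (9 of 12 measured) averaged 10.1 to 10.6 per array in T+E2, 9.76 to 10.2 in T+lowBPA, 9.97 to 10.3 in T+highBPA and 10.1 to 10.4 in control, with 1 called higher in T+E2, Tmprss2 (difference 1.03, limma adjusted p = 0.00983). That call ended in 1 of 21 alternatives, the fit of only the compared groups (adjusted p = 0.0545, range 0.00119 to 0.0545). The 9 prostate markers ran from -1.76 to 1.03 in T+E2 minus control, with 5 of 9 above 0. For T+lowBPA minus control they ran from -3.18 to 0.42, with 3 of 9 above 0. For T+highBPA minus control they ran from -3.54 to 0.66, with 7 of 9 above 0. In both BPA comparisons 0 were called. Tissue makeup varied between rats, with ventral prostate secretory genes from 5.71 to 9.82 in T+E2 and 5.16 to 9.84 in control, and skeletal muscle genes from 6.79 to 9.47 in T+E2 and 7.41 to 10.1 in control. Both lists overlapped between T+E2 and control, and 0 of 9 were called in each. For T+E2 minus control, skeletal muscle genes had a median of -0.78 with 0 of 9 above 0. The ventral prostate list had a median of 0.40 with 7 of 9 above 0. Each T+highBPA array averaged between 7.98 and 9.87 for that list, whereas T+lowBPA arrays lay between 6.13 and 6.30. Control arrays reached 9.84 and so overlapped T+highBPA. The list's median was 2.36 for T+highBPA minus control and 3.56 for T+highBPA minus T+lowBPA. Each time 7 of 9 genes were above 0 and 0 were called by limma. How this bears on the run's lower values in T+highBPA was not tested. Smooth muscle markers did move with the run, in the opposite direction, averaging 8.41 to 8.88 per array in T+E2 and 8.91 to 9.50 in control. Of these, 3 of 7 were called lower (Cnn1, Actg2 and Tagln, calls that ended in 7, 6 and 10 of 21 alternatives), with a median of -0.59, and their part in the run's difference was not tested. Neuron and nerve markers (9 of 11 measured) had 0 called and a median of 0.02, and immune markers (7 of 9 measured) 0 called and a median of 0.12. Arrays of a group correlated at 0.979 to 0.991 in the 3 treated groups and at 0.956 to 0.994 in control.

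The genes most like the run over the 14 arrays, by Pearson correlation with the centred mean of the run, were Vsig1 (0.987), Syt10 (0.987), Ccl25 (0.984), Taar1 (0.982), Cyp17a1 (0.981) and Agr3 (0.979). Vsig1 is an adhesion protein known from stomach, Syt10 a vesicle calcium sensor, Ccl25 a chemokine that guides lymphocytes to the gut, Taar1 a trace amine receptor, Cyp17a1 a steroid-synthesis enzyme and Agr3 a protein of secretory and ciliated cells. Vsig1 had 7.07, 7.94, 8.09 and 7.57 in T+E2 rats, against 5.50, 5.19, 5.44 and 5.42 in control rats, and like the run it was lowest in T+E2 replicate 1 and highest in T+E2 replicate 3. Agr3 had 5.48, 6.56, 6.30 and 5.63 in T+E2 rats, against 4.27, 4.09, 4.16 and 4.57 in control rats. With group means removed, the correlations with the run were 0.835 for Agr3 and 0.743 for Vsig1, against 0.36 to 0.52 for the other 4. Taar1 shows the contrast, at 8.67, 8.63, 8.61 and 8.64 in T+E2 rats, against 5.35, 4.92, 4.56 and 5.62 in control rats, with T+E2 arrays nearly level. The most opposed genes were Cdh7 (-0.972), Prkx (-0.962) and Itpr1 (-0.955). The correlations with group means kept rest on the step between T+E2 and the other arrays. None of the correlations, with group means kept or removed, says anything of shared function or control.

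**Figure D4:**
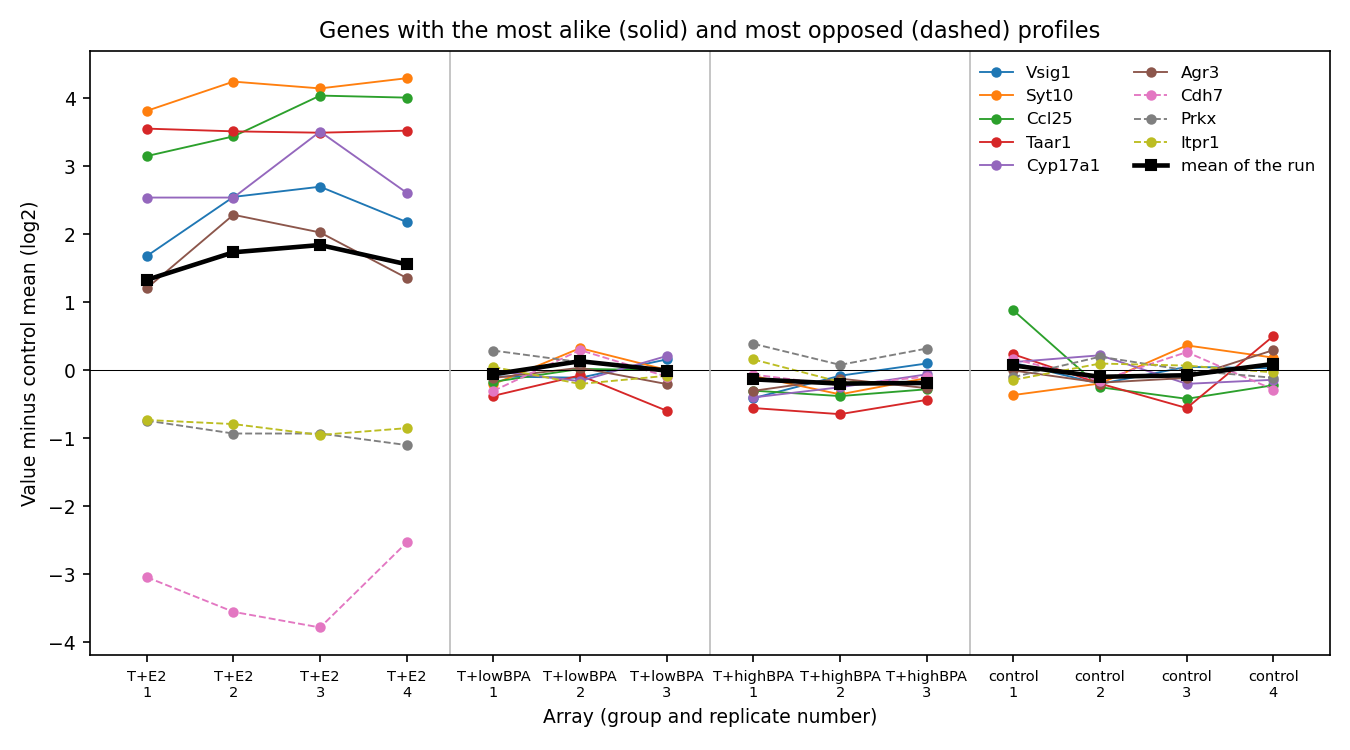
Value minus the control mean (log2, vertical axis) in each of the 14 arrays by group and replicate (horizontal axis) for the mean of the run (thick line) and the genes with the most alike (solid) and most opposed (dashed) profiles. The alike genes step up in all 4 T+E2 arrays, and the run is lowest there in replicate 1.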

How the data were processed

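Lateral prostate RNA of 14 rats was extracted with TRIzol, amplified with an Ovation Pico kit, per the labels' protocols, and hybridised to 1 Affymetrix array each. The deposited log2 values were made by the authors with RMA, per the submitters' processing notes, a method that subtracts background, equalises the arrays' distributions and merges each probe set's probes into 1 value, so overall brightness differences were removed. No RMA version, probe set definition or build is stated (not given in the sources used here). Values ran from 2.30 to 13.65 with array medians of 6.38 to 6.46. Arrays have no read depth, and their number limits the precision.

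Of 17802 probe sets, 16134 carried exactly 1 gene symbol and entered the tests, and 1668 carried none. Symbols were updated through gene number with the RefSeq table of GRCr8 (16008 matched, 3132 symbols updated). Start windows came from RefSeq, GRCr8, and were aligned with Biopython 1.88. The model was limma's (version 3.58.1, run in R 4.3.3), with a coefficient per group over all 14 arrays (10 residual degrees of freedom, prior 4.13) and two-sided p-values, adjusted by Benjamini-Hochberg within each of 6 comparisons over the 16134 genes. A call is an adjusted p below 0.05. The limma script was tested on simulated data. The labels name rats but no litters or days, so p-values measure the spread between these arrays.

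The members and lists were chosen with earlier results of these data known. Named were the 9 members, Or51e1, Or51e2, the 4 other Or51 genes with the largest difference in any comparison, the 6 genes most and 3 least correlated with the run, 5 measured neighbours per side, and up to 3 genes per list. The fourth of the Or51 genes, Or51a7b, had its largest difference between T+highBPA and T+lowBPA (-0.40, limma adjusted p = 0.272). Alternatives were cyclic loess, median centring, leaving out the 25% of genes with the lowest mean, testing also unnamed probe sets, fitting the compared groups alone, a trended robust fit, the replicate block and leaving out each array. Same-numbered arrays deviated together, with every correlation over 0.1, in T+highBPA against T+lowBPA (0.166, 0.102 and 0.255) and T+highBPA against T+E2 (0.18, 0.435 and 0.139). In the remaining comparisons the signs were mixed, as in T+lowBPA against control (0.247, -0.32 and 0.243) and T+highBPA against control (0.285, -0.464 and 0.379). The labels state no reason for a pairing.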

Additional observations from a re-analysis of the deposited data

Results flagged for a closer look

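In no group of 4 arrays did a gene of the run have a value that stood apart by Dixon's 95% criterion (the gap to the nearest other array, as a share of the group's range). Of 142 groups of 4 looked at, chance alone would give about 1 in 20, and 4 stood apart. Ccl25 in control replicate 1 was 5.27, and the remaining control arrays held 3.97 to 4.17. Cyp17a1 was at 8.33 in T+E2 replicate 3, against 7.36 to 7.43 in the other T+E2 arrays. For the cotransporter gene Slc12a2, control replicate 1 had 11.26 and the remaining control arrays 11.63 to 11.7. Ptprc, the leukocyte marker CD45, was at 10.36 in T+E2 replicate 1, against 9.44 to 9.59 in the other T+E2 arrays, and that replicate was also the lowest T+E2 array for 7 of 9 genes of the run. How the level of Ptprc bears on the run was not tested.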

How the results depend on the processing

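The 9 genes of the run were called higher in T+E2 than in control under every alternative in which all 9 were tested. The filter on dim genes kept 5 of 9, all called, so it gave no median for the run. That filter used the mean over all 14 arrays, which the high T+E2 arrays raise, so nothing is read from those 5 calls. The run's median was lowest and highest at 1.35 and 1.64 for T+E2 minus control, -1.68 and -1.39 for T+lowBPA minus T+E2, and -1.79 and -1.52 for T+highBPA minus T+E2 when 1 array was left out, the largest sizes without T+E2 replicate 1. It was -0.03 to 0.06 for T+lowBPA minus control, -0.22 to -0.13 for T+highBPA minus control and -0.18 to -0.12 between the BPA groups. Counts of all genes called moved more. T+E2 minus control had 521, against 222 with only the compared groups and 282 to 662 with 1 array left out (317 and 282 without T+E2 replicates 2 and 4, 295 and 315 without control replicates 2 and 3). T+lowBPA minus control had 3, against 5 with all probe sets, 0 with only the compared groups, 8 with the trended robust fit and 0 to 14 with 1 array left out (1, 0, 8 and 14 without control replicates 1 to 4, 0 without any T+lowBPA replicate). T+highBPA minus control had 1, against 0 with only the compared groups and 0 to 12 (3, 0 and 12 without control replicates 1, 2 and 4, 0 without any T+highBPA replicate). T+highBPA minus T+lowBPA had 0, against 18 with only the compared groups and 0 to 1. T+lowBPA minus T+E2 had 569, against 309 to 882 (309, 327 and 335 without T+lowBPA replicates 1 to 3, 882 without control replicate 4). T+highBPA minus T+E2 had 1639, against 857 to 2493 (857, 908 and 1054 without T+highBPA replicates 1 to 3, 2493 without control replicate 4, 1040 when T+E2 replicate 1 was left out). The causes were not tested. Calls among the run and other Or51 genes over the 6 comparisons numbered 29, against 17 with the filter, which tested fewer genes, and 28 to 32 with 1 array left out. With the replicate number as a block, 587, 2, 1, 0, 587 and 1940 genes were called for T+E2, T+lowBPA and T+highBPA minus control, T+highBPA minus T+lowBPA, and T+lowBPA and T+highBPA minus T+E2. In that order the run's medians were 1.47, 0.03, -0.20, -0.14, -1.56 and -1.67, and no call of the run changed. In T+E2 against control the same-number correlations were 0.444, -0.318, 0.105 and -0.116, of mixed sign, so no steady pairing by number was seen there. With 3 or 4 arrays a group, the intervals of the run's genes in the BPA groups against control leave room for differences of -0.67 to 0.56.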

Other observations

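Outside the Or51 family, 7 olfactory receptor genes were called in T+E2 against control by limma, and they were picked out after their values were seen. Or6c69 on chromosome 7 averaged 5.96 ± 0.52 in T+E2 and 4.98 ± 0.24 in control (SD, n = 4 each), 0.98 or 1.98-fold higher (adjusted p = 0.0256). The other 5 that were higher were Or1f34 and Or1f21 on chromosome 10 (differences 0.56 and 0.47, adjusted p = 0.0226 and 0.0338), Or2h2 on chromosome 20 (0.46, 0.048), Or9s14b on chromosome 9 (0.43, 0.025) and Or6c74 on chromosome 7 (0.37, 0.0295). Or2n1g on chromosome 20 was lower, with a difference of -0.54 (adjusted p = 0.0221). All 7 calls ended when the fit held only the compared groups, and each also ended without at least 1 array, with adjusted p-values of 0.00206 to 0.172 over the alternatives of these genes.

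Median differences of T+E2 minus control were taken over 15840 windows of 9 successive measured genes on a chromosome. The highest in a window without a gene of the run was 0.48, on chromosome 5. The run had 1.47, but its genes were chosen from values of these same arrays.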
